A study of Mus musculus with 6 samples.

Results

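The 10 genes described here are *Nfe2l2*, which encodes the transcription factor Nrf2, *Keap1*, which encodes its inhibitor, and 8 target genes of Nrf2 (*Nqo1*, *Hmox1*, *Gclc*, *Gclm*, *Txnrd1*, *Srxn1*, *Slc7a11* and *G6pdx*). All 10 were found in the deposited RNA-seq table and are among the 21959 genes with a usable value in both conditions. RNA-seq was used in the study to ask how blocking Group I Pak kinases alters transcription in *Apc*-mutant colonic tumor cells. The inhibitor is PID, a Pak inhibitory domain fused to GST and followed by an eGFP reporter, which was placed at the *Rosa26* locus and is switched on by Cre.

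*PID*+ cells were primary colonic cell lines from adenomas of mice that carried the ROSA26-PID allele together with CDX2P-NLS-Cre and APC Δ/+, and were numbered 4, 7 and 26. *PID*- cells were lines from CDX2P-NLS-Cre;APC Δ/+ mice without that allele, numbered 1, 2 and 3 in the labels, which call them normal and untreated. These numbers are not those by which the study refers to its *PID*- lines. Both genotypes therefore carry Cre and a deleted *APC* allele, and Cre is driven by CDX2P in intestinal epithelium. The parents with Cre or the *APC* allele were C57BL6/J. No age is stated for the lines themselves. The labels name 3 mice per condition, whereas the methods speak of replicated sequencing runs. The authors merged the 3 sets of reads of a condition, so that the table holds 1 pooled FPKM (fragments scaled to transcript length and to library size) per gene and condition, with the bounds of CuffDiff's confidence interval. No difference below has a replicate check, and no test between the conditions was possible. In cultured lines measured in bulk, fewer cells of a type and less RNA per cell cannot be told apart.

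Nrf2 is held low in unstressed cells by Keap1, which brings it to a ubiquitin ligase. When oxidants or electrophiles modify Keap1, Nrf2 accumulates, pairs with small Maf proteins and binds antioxidant response elements near genes for glutathione synthesis, thioredoxin reduction, NADPH production and haem breakdown. Since Nrf2 is controlled largely as a protein, the mRNA of *Nfe2l2* does not measure its activity, and the pathway is often read from the mRNAs of its targets. The pathway is known for protecting intestinal epithelium and for its activation in many tumors.

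*Slc7a11* differed most among the 10 genes, and *PID*- cells had 4.69 times its FPKM in *PID*+ cells. The other genes differed less than 2-fold as deposited, and *Nqo1* was close to 0 in both conditions. On the scale used for all calls, log2 of (FPKM + 1) in *PID*+ over (FPKM + 1) in *PID*- cells, 1 of the 10 genes (*Hmox1*) was at least 1.5-fold higher in *PID*+ cells, against 13.0% of the 9341 genes whose mean FPKM over the conditions was at least 5. At least 1.5-fold lower were 2 of the 10 (*Gclc* and *Slc7a11*), against 13.4% of all genes. At 3-fold, the threshold of the study's heatmap, 0 of the 10 were higher (1.54% of all genes) and 1, *Slc7a11*, was lower (2.37% of all genes). The deposited intervals of the conditions overlapped for each of the 10 genes, whereas they were apart for 0.375% of all genes in the direction of higher and 0.974% in the direction of lower FPKM in *PID*+ cells. The counts of the 10 genes are therefore near those of the table as a whole, and *Nqo1*, which did not reach a mean FPKM of 5, had little room to pass a fold on this scale.

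The 10 genes had a median log2 change of 0.02, or -0.0080 without *Nqo1*, beside -0.0012 for the 9341 genes. Scaling the conditions to equal *Gapdh* lowers every gene, and moved the median of all genes to -0.58 and that of the 10 genes to -0.57. This follows from *Gapdh* itself, whose FPKM came to 2570.3 in *PID*+ against 1666 in *PID*- cells. Another control, *Actb*, measured 1909 and 1433, giving a log2 change of 0.41 that becomes negative with equal *Gapdh*. With equal *Gapdh*, 0 of the 10 genes were at least 1.5-fold higher and 5 (*Nfe2l2*, *Keap1*, *Gclc*, *Gclm* and *Slc7a11*) were lower, and of all genes 336 were higher and 4662 lower, in place of 1218 and 1249. At 3-fold, 45 of all genes were then higher and 457 lower, in place of 144 and 221. With equal total FPKM the numbers at 1.5-fold were 958 and 1608, and of the 10 genes 1 (*Hmox1*) was higher and 3 (*Nfe2l2*, *Gclc* and *Slc7a11*) lower.

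The regulators were both expressed in both conditions. *Nfe2l2* (ENSMUSG00000015839.6, chromosome 2 of GRCm38 from 75675513 to 75704641) measured 105 FPKM in *PID*+ cells (deposited interval 47.0 to 164) against 149 in *PID*- cells (68.03 to 229), giving a log2 change of -0.49. Below, paired values without a condition are FPKM in *PID*+ and then *PID*- cells, with deposited intervals in parentheses. Its level placed it above 96.4% of the genes in *PID*+ and 97.7% in *PID*- cells. Most of the length of either interval was shared. *Keap1* (ENSMUSG00000003308.11, chromosome 9 from 21229730 to 21239361) measured 20.3 (2.40 to 38.3) FPKM in *PID*+ against 22.5 (6.04 to 39.0) in *PID*- cells, giving a log2 change of -0.14. Both genes were lower in *PID*+ cells under each of the scalings tried. The FPKM of *Nfe2l2* was 5.18 times that of *Keap1* in *PID*+ and 6.60 times in *PID*- cells, so the mRNA of the factor exceeded that of its inhibitor in both. *Keap1* shares its locus with the noncoding gene *Gm16754*. The library kit does not mark strand, so reads of the overlap cannot be assigned with certainty. *Nfe2l2*, *Slc7a11*, *Gclm* and *Txnrd1* also overlap genes without a coding annotation.

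*Slc7a11* (ENSMUSG00000027737.7, chromosome 3 from 49892526 to 50443614) encodes xCT, the subunit that carries cystine into the cell in exchange for glutamate and so supplies cysteine for glutathione. Its FPKM was 11.5 in *PID*+ cells, with a deposited interval of 2.17 to 20.8, and 53.9 in *PID*- cells, with an interval of 13.5 to 94.3. The log2 change was -2.14, and 1.37% of all genes (128 of 9341) had a more negative one. The intervals overlapped between 13.5 and 20.8. *Slc7a11* ranked 6 of the 10 genes by FPKM in *PID*- and 9 in *PID*+ cells, where only *Nqo1* was lower. The log2 change ranged from -2.70 with equal *Gapdh* to -2.11 with equal upper quartiles of FPKM, and was -2.39 relative to the median of chromosome 3, whose genes as a group were higher in *PID*+ cells (median log2 change 0.25).

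*Gclc* and *Gclm* encode the catalytic and the modifier subunit of glutamate-cysteine ligase, the rate-limiting enzyme of glutathione synthesis, which uses the cysteine that xCT helps to provide. *Gclc* (ENSMUSG00000032350.8, chromosome 9 from 77754535 to 77794485) measured 88.8 (40.9 to 137) FPKM in *PID*+ against 138 (62.7 to 214) in *PID*- cells, giving a log2 change of -0.63. *Gclm* (ENSMUSG00000028124.12, chromosome 3 from 122245557 to 122270732) had 69.0 (17.6 to 120.3) and 69.3 (13.7 to 125), giving a log2 change of -0.0080 that becomes 0.02 with equal upper quartiles. The subunits thus did not differ by the same amount, and the ratio of *Gclc* to *Gclm* was 1.29 in *PID*+ and 1.99 in *PID*- cells. *Gclc* lies just past 1.5-fold, and relative to the median of chromosome 9 its log2 change of -0.55 falls short of it. The intervals overlapped for both subunits.

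*Txnrd1* and *Srxn1* act in the reduction of protein thiols. Thioredoxin reductase 1, the product of *Txnrd1* (ENSMUSG00000020250.9, chromosome 10 from 82833951 to 82897712), passes electrons from NADPH to thioredoxin, and the gene measured 109.6 (50.2 to 169) FPKM in *PID*+ against 82.8 (38.04 to 128) in *PID*- cells. Its log2 change of 0.40 turns to -0.22 with equal *Gapdh*. Sulfiredoxin, the product of *Srxn1* (ENSMUSG00000032802.8, chromosome 2 from 152105516 to 152111376), repairs overoxidised peroxiredoxins, and the gene measured 19.9 (5.75 to 34.1) and 17.02 (2.11 to 31.9). Its log2 change of 0.22 turns to -0.37 with equal *Gapdh*. Neither gene passed 1.5-fold, and *Txnrd1*, which overlaps the coding gene *Eid3*, had the highest FPKM of the 10 genes in *PID*+ cells.

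*G6pdx* (ENSMUSG00000031400.7, chromosome X from 74409483 to 74429194) encodes glucose-6-phosphate dehydrogenase, which opens the pentose phosphate pathway and yields NADPH. The gene measured 90.2 (23.8 to 157) FPKM in *PID*+ against 84.0 (0.489 to 168) in *PID*- cells, giving a log2 change of 0.10 that is -0.0014 with equal total FPKM and -0.52 with equal *Gapdh*. The genes of chromosome X had a median log2 change of -0.45. A list of 4 Y-linked genes was lower in *PID*+ cells too, with a median of -0.55. Relative to the median of chromosome X, *G6pdx* was at 0.56. It overlaps the coding gene *Ikbkg*, which measured 22.5 and 65.2, so reads of the shared stretch may count for either. Its retrogene copy *G6pd2* was listed at 0 in *PID*+ and at 0.0049 in *PID*- cells. *Ikbkg* and *G6pd2* were looked up after the values of the 10 genes had been seen.

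*Hmox1* (ENSMUSG00000005413.7, chromosome 8 from 75093621 to 75100589), the inducible haem oxygenase, measured 36.7 (13.0 to 60.5) FPKM in *PID*+ against 22.1 (6.19 to 38.1) in *PID*- cells. *PID*+ cells thus had 1.66 times the FPKM of *PID*- cells, the largest ratio in this direction among the 10 genes, with intervals that overlapped. The log2 change of 0.71 was larger than that of 90.2% of all genes, became 0.83 relative to the median of chromosome 8, and was 0.10 with equal *Gapdh*. *Hmox1* is also controlled by the haem-sensing repressor Bach1, whose gene was named here after its values were seen. *Bach1* measured 5.05 (0.524 to 9.57) FPKM in *PID*+ against 9.21 (2.64 to 15.8) in *PID*- cells, with intervals that overlapped. Its log2 change of -0.75 is -0.25 relative to the median of chromosome 16. Whether Bach1 acts on *Hmox1* in these cells was not tested.

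*Nqo1* (ENSMUSG00000003849.8, chromosome 8 from 107388225 to 107403206) encodes a quinone reductase that is widely used as a readout of Nrf2, and was the exception in level. Its FPKM came to 0.171 (0 to 0.506) in *PID*+ against 0.132 (0 to 0.395) in *PID*- cells, giving a log2 change of 0.05 that is -0.03 with equal *Gapdh*. With 1 annotated transcript and no overlapping gene, its value could be turned into fragments through the steps in which low FPKM values fall, which gave 16 fragments in *PID*+ and 17 in *PID*- cells. The ratio of FPKM in *PID*+ to *PID*- cells was 1.30, with an exact 95% interval of 0.613 to 2.73 that covers counting error only, so a difference was not detectable with these counts. Both counts are above the 3 fragments that a count of 0 allows, so a few fragments were assigned to the gene in both conditions. Pooled values do not show whether stray reads or a single line supplied them. The coding neighbours of *Nqo1* in the table, chosen after its values were seen, were expressed. *Nfat5* on the side of lower coordinates measured 14.1 FPKM in *PID*+ against 13.3 in *PID*- cells, and *Nob1* on the other side had 24.5 and 25.7.

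In the order of FPKM in *PID*+ cells, *Txnrd1* came first, followed by *Nfe2l2*, *G6pdx*, *Gclc*, *Gclm*, *Hmox1*, *Keap1*, *Srxn1*, *Slc7a11* and *Nqo1*. In *PID*- cells the order was *Nfe2l2*, *Gclc*, *G6pdx*, *Txnrd1*, *Gclm*, *Slc7a11*, *Keap1*, *Hmox1*, *Srxn1* and *Nqo1*. Neighbours in either order had overlapping intervals, except that *Nqo1* lay apart from the gene before it. The 8 targets together had 426 FPKM in *PID*+ against 468 in *PID*- cells, and *Slc7a11* and *Gclc* were the only targets, apart from the nearly equal *Gclm*, with a lower value in *PID*+ cells as deposited. With equal *Gapdh*, 1 of the 10 genes (*Hmox1*) was higher and 9 were lower in *PID*+ cells.

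**Figure D1:**
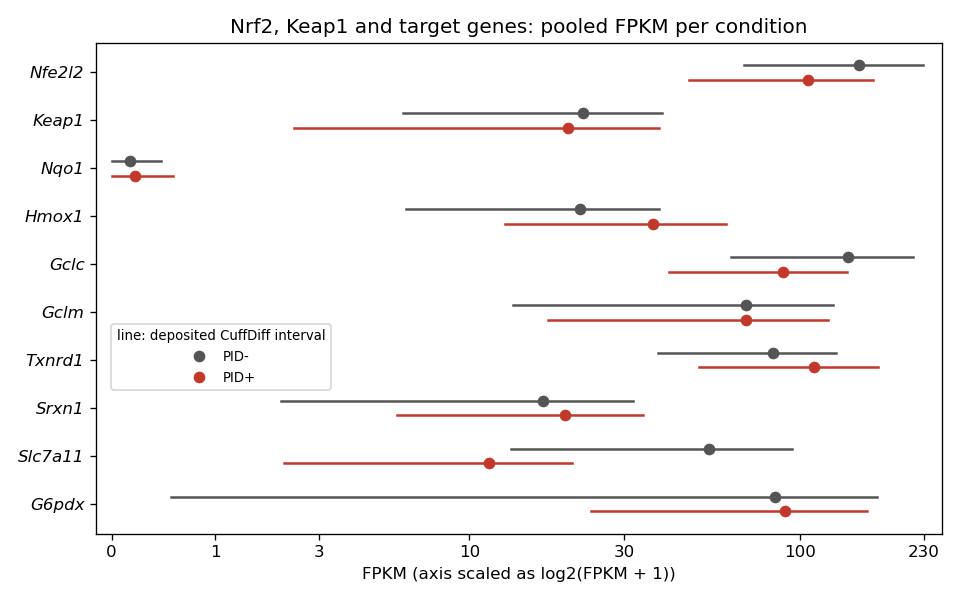
Pooled FPKM of the 10 genes in *PID*+ (red) and *PID*- (grey) cells on an axis scaled as log2(FPKM + 1); points are the deposited values and lines CuffDiff's confidence intervals. The intervals of the conditions overlap for each gene, *Slc7a11* differs most (11.5 against 53.9), and *Txnrd1*, *Srxn1*, *G6pdx* and *Nqo1*, higher in *PID*+ cells as deposited, turn lower with equal *Gapdh*.

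Genes that work beside the 10 were described as 8 lists, again beside the median of -0.0012 for all genes. Counts of higher and lower list genes are as deposited, and of the 84 genes in them with a mean FPKM of at least 5, 17 changed direction with equal *Gapdh*, 11 with chromosome medians subtracted, 2 with equal total FPKM and 1 with equal upper quartiles. The intervals of list genes named below overlapped except where said to be apart. Of all genes, 13.0% were at least 1.5-fold higher and 13.4% lower, which is the background for the counts of each list. *Slc3a2*, which encodes the heavy chain that anchors xCT in the membrane, measured 93.2 (43.1 to 143) FPKM in *PID*+ against 226 (98.6 to 354) in *PID*- cells, giving a log2 change of -1.27. Because *Slc7a11* differed more than its partner, the ratio of *Slc3a2* to *Slc7a11* was 8.11 in *PID*+ and 4.20 in *PID*- cells. *Chac1*, whose product degrades glutathione, had 6.60 (0 to 14.1) and 39.3 (14.6 to 64.04), giving a log2 change of -2.41, and its intervals were apart. *Gss*, glutathione synthetase, had 13.6 and 35.9, giving a log2 change of -1.34, and *Glrx*, a glutaredoxin, had 6.54 and 18.0, giving a log2 change of -1.33. *Gpx2*, the glutathione peroxidase of the gut epithelium, went the other way, with 17.2 (0 to 40.5) and 7.29 (0 to 20.8) and a log2 change of 1.14. Of the 17 genes for glutathione synthesis and use, 12 had a mean FPKM of at least 5 (not *Gpx3*, *Gpx7*, *Ggt1*, *Ggct* and *Oplah*), of which 9 were lower and 3 (*Gpx2*, *Gsr* and *Glrx3*) higher, with a median of -0.18, or -0.0986 with chromosome medians subtracted. At least 1.5-fold lower were 4 of the 12 (*Chac1*, *Gss*, *Glrx* and *Slc3a2*; 13.4% of all genes) and 1, *Gpx2*, was higher (13.0% of all genes), though not with equal *Gapdh*. With equal *Gapdh*, *Gpx2* alone of these 12 was higher. *Gss* overlaps *Acss2* and *Gpx2* overlaps *Fntb*, so their values are less certain.

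Genes of the Nrf2 family, its partners and its turnover formed a list of 14. A mean FPKM of at least 5 was reached by 11 (not *Nfe2*, *Bach2* and *Btrc*). Of these, 7 were lower and 4 (*Nfe2l3*, *Maff*, *Mafk* and *Dpp3*, all lower with equal *Gapdh*) higher. None was at least 1.5-fold higher (13.0% of all genes) and 4 (*Sqstm1*, *Gsk3b*, *Bach1* and *Nfe2l1*) were at least 1.5-fold lower (13.4% of all genes), of which *Sqstm1* and *Nfe2l1* remain with chromosome medians subtracted. The median was -0.22. *Sqstm1* encodes p62, which is a target of Nrf2 and also draws Keap1 into autophagy. Its FPKM came to 119.9 (42.7 to 197) in *PID*+ against 312 (122 to 501) in *PID*- cells, giving a log2 change of -1.37, and it overlaps *Mrnip*.

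Among 15 thioredoxins, peroxiredoxins and sestrins, 13 had a mean FPKM of at least 5 (not *Txnrd3* and *Sesn1*), of which 10 were lower and 3 (*Txn2*, *Prdx5* and *Txndc17*, all lower with equal *Gapdh*) higher in *PID*+ cells. The median was -0.35, and -0.09 with chromosome medians subtracted. As deposited, 3 of the 13 (*Txnip*, *Sesn3* and *Txnrd2*, the last not with chromosome medians subtracted) were at least 1.5-fold lower and 0 higher. At least 1.5-fold lower were 11 with equal *Gapdh* (49.9% of all genes) and 5 with equal total FPKM (17.2% of all genes). *Txnip*, whose product binds and inhibits thioredoxin, measured 9.44 (0 to 19.5) FPKM in *PID*+ against 116 (41.9 to 190.5) in *PID*- cells, giving a log2 change of -3.49 with intervals apart. *Sesn3*, a sestrin, had 8.31 and 21.6, giving a log2 change of -1.28. Of the 11 genes of NADPH production, the branch of *G6pdx*, 8 were lower and 3 (*Rpia*, *Rpe* and *Taldo1*) higher, with a median of -0.31, and with equal *Gapdh* *Rpia* alone was higher. As deposited, 3 of the 11 (*Me1*, *Idh2* and *Pgd*) were at least 1.5-fold lower and 1, *Rpia*, was higher, and with chromosome medians subtracted *Pgd* and *Rpia* no longer passed. *Me1*, the cytosolic malic enzyme and a further target of Nrf2, had 37.9 (14.4 to 61.3) and 143 (59.0 to 227), giving a log2 change of -1.89, and was at least 3-fold lower.

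Among 10 genes of haem and iron handling, the branch of *Hmox1*, 7 were lower and 3 (*Tfrc*, *Ftl1* and *Blvra*) higher, with a median of -0.48, and with equal *Gapdh* *Tfrc* alone was higher. As deposited, 5 of the 10 (*Slc40a1*, *Blvrb*, *Fth1*, *Slc48a1* and *Hmox2*, the last not with chromosome medians subtracted) were at least 1.5-fold lower and 1, *Tfrc*, was higher. *Tfrc*, the transferrin receptor, measured 69.8 (0 to 231) FPKM in *PID*+ against 21.0 (0 to 68.0) in *PID*- cells, giving a log2 change of 1.69. The iron exporter gene *Slc40a1* had 11.4 and 31.5, giving a log2 change of -1.39, and *Blvrb*, a biliverdin reductase, had 4.69 and 13.5, giving a log2 change of -1.35 with intervals that begin at 0 in both. Of 7 genes that remove superoxide and peroxide, 5 had a mean FPKM of at least 5 (not *Sod3* and *Msra*). Each was lower in *PID*+ cells but within 1.5-fold as deposited, with a median of -0.40. With equal *Gapdh* all 5 were at least 1.5-fold lower (49.9% of all genes). *Sod1*, which overlaps *Scaf4*, had 198 and 275, giving a log2 change of -0.47 that is 0.03 relative to its chromosome. *Cat* had 39.6 and 45.5. A list of 12 other textbook targets of Nrf2 held 10 genes above that level (not *Abcc2* and *Cbr3*), of which 6 were higher and 4 lower in *PID*+ cells, and 3 (*Osgin1*, *Abcc4* and *Gde1*) and 7 with equal *Gapdh*. Its median was 0.16 as deposited and -0.46 with equal *Gapdh*. As deposited, *Osgin1*, *Abcc4* and *Gde1* were at least 1.5-fold higher (13.0% of all genes), none of them with equal *Gapdh* or equal total FPKM and only *Osgin1* with chromosome medians subtracted, and 1 gene of this list was at least 1.5-fold lower (13.4% of all genes). This was *Pir*, the gene of an iron-binding nuclear protein, with 2.55 (0 to 5.83) and 14.6 (1.91 to 27.2) and a log2 change of -2.13.

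*Slc7a11* is known as a target of ATF4, the factor of the amino acid and integrated stress response, as well as of Nrf2. Among 14 genes of the ATF4 response, which include *Chac1* and *Sesn2* from the lists above, 13 were lower in *PID*+ cells and 1 (*Phgdh*, lower with equal *Gapdh*) was higher. At least 1.5-fold lower were 11 of the 14 (13.4% of all genes) and at least 3-fold lower 5 (*Trib3*, *Slc7a5*, *Chac1*, *Ddit3* and *Atf3*; 2.37% of all genes), and the median was -0.999. Like the other lists, this one was chosen with earlier results of these data known. The fibroblast markers described below also had a lower sum in *PID*+ cells, 3.08 against 34.2 FPKM, most of the latter from *Col1a1* and *Col1a2*. The 9 epithelial markers with a mean FPKM of at least 5 were higher, with a median log2 change of 1.10 that is 0.48 with equal *Gapdh*. The epithelial marker *Cdx2*, below that mean, was lower in *PID*+ cells, with a log2 change of -2.55. *Trib3*, a pseudokinase gene, measured 6.57 (0 to 13.5) FPKM in *PID*+ against 67.3 (27.1 to 108) in *PID*- cells, giving a log2 change of -3.17 with intervals apart. *Slc7a5*, another transporter light chain that pairs with the product of *Slc3a2*, had 39.5 and 229.7, giving a log2 change of -2.51. *Ddit3*, which encodes CHOP, had 14.3 and 56.1, and *Atf3* had 6.94 and 28.5, log2 changes of -1.90 and -1.89. The intervals of *Slc7a5* and *Ddit3* reach down to 0 in both conditions. *Atf4* itself, named after its values were seen, had 166 and 231, giving a log2 change of -0.47. Which factor acts on *Slc7a11* in these cells was not tested. *Slc7a5* overlaps *Gm20388* and *Ddit3* overlaps *Mars*, so their values are less certain.

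**Figure D2:**
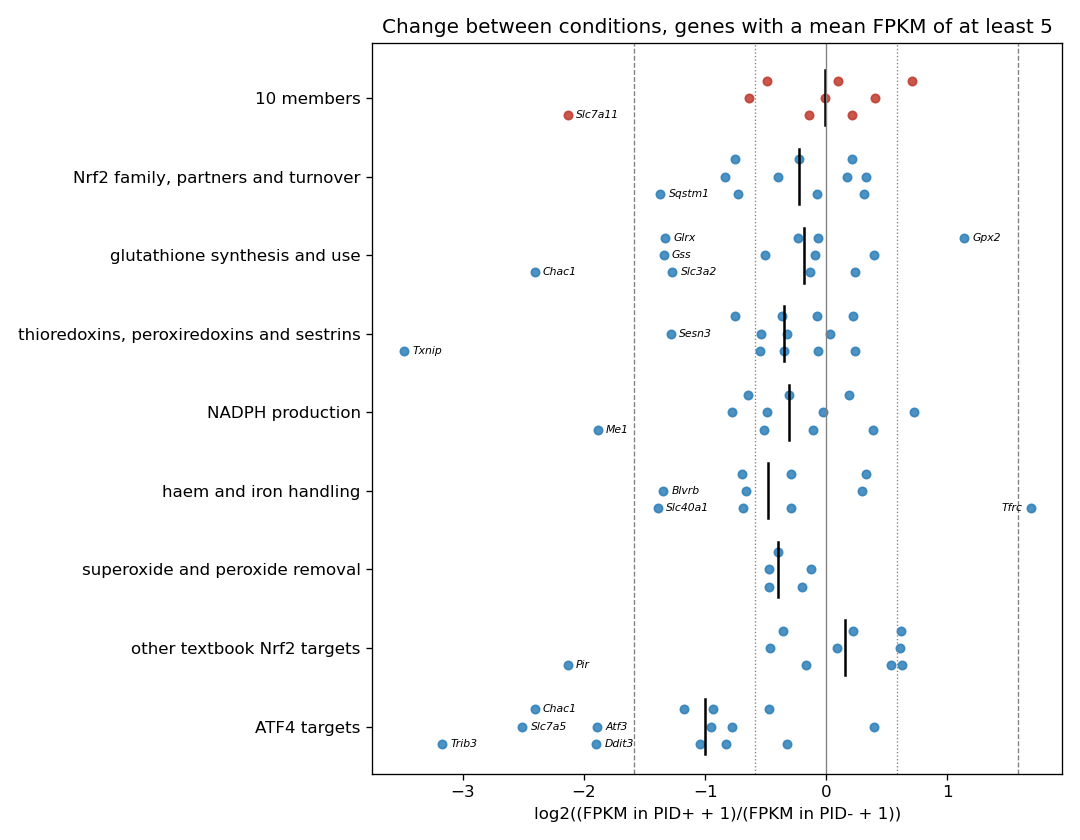
Log2 of (FPKM + 1) in *PID*+ over (FPKM + 1) in *PID*- cells for the genes with at least 5 FPKM on average among the 10 genes (red) and each list of related genes (blue); black bars are medians, dotted and dashed lines mark 1.5-fold and 3-fold, and genes named by rule are labelled. The ATF4 list lies lowest, with a median of -0.999. The medians of the other lists lie between -0.48 and 0.16, and that of the other Nrf2 targets turns to -0.46 with equal *Gapdh*. The lists were chosen with earlier results of these data known.

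Promoters of 8 of the 10 genes (RefSeq, build GRCm38.p6, 250 bases before to 50 after each annotated start) were searched on both strands for TGACNNNGC, the core letters of an antioxidant response element. *Hmox1* and *Gclc* were not among the 8. The letters were found in 5 of the 8 genes (*Nfe2l2*, *Gclm*, *Txnrd1*, *Srxn1* and *G6pdx*), against 14.0% of the genes in the promoter table, whatever their FPKM, and 12.4% of all 32851 promoters. A match is a description of the sequence only. Of the 5 genes with a match, none passed 1.5-fold between the conditions as deposited, but *Nfe2l2* did with equal total FPKM and *Nfe2l2* and *Gclm* did with equal *Gapdh*. *Slc7a11*, *Keap1* and *Nqo1* had no match in this window. With the looser letters TGANNNNGC, 7 of the 8 genes had a match, against 45.0% of the genes in that table and 41.3% of promoters, and *Nqo1* again had none. In the 8 lists of related genes, TGACNNNGC was found in 13.3% (glutathione) to 38.5% (ATF4) of the genes with a promoter. The windows around the matches to TGACNNNGC upstream of the start are shown as a description of the sequence. They are written on the strand of the gene with the letters in capitals, and lie at chr2:75704865-75704913 for *Nfe2l2* (minus strand), chr3:122245393-122245461 for *Gclm* (plus), chr10:82859084-82859152 for *Txnrd1* (plus, 1 of its 3 promoters) and chrX:74428899-74428967 for *G6pdx* (minus). In *Gclm*, *Txnrd1* and *G6pdx* the letters are on the opposite strand and appear reversed and complemented.
Nfe2l2: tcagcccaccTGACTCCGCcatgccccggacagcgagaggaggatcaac
Gclm: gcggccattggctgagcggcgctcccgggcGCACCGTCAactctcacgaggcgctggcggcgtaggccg
Txnrd1: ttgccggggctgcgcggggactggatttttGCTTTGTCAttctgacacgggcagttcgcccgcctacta
G6pdx: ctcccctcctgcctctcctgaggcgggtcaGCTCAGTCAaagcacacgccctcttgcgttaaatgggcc

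In *Srxn1* the match to TGACNNNGC lies after the start and is not shown. Upstream of the start, *Srxn1* has the AP-1 letters TGAGTCA at 2 places, 102 and 45 bases before the start, and the looser TGANNNNGC covers the 7 letters of the copy at 45 bases. TGAGTCA or its reverse complement TGACTCA was found in 5.20% of all promoters and in no other of the 8 genes. The window lies at chr2:152105392-152105515 (plus strand), with TGAGTCA in capitals.
Srxn1: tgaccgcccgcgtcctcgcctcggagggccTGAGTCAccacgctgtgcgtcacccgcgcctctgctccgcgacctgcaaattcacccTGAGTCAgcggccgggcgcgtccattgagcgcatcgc

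For *Slc7a11*, the letters TGATGCAA, as found in composite elements for ATF4 and C/EBP proteins, were searched after the values had been seen. They were found in 1 of the 8 genes, *Slc7a11*, in 2 of 13 genes of the ATF4 list with a promoter (*Chac1* and *Atf3*) and in 1.03% of the genes in the promoter table or 0.895% of all promoters. *Slc7a11* has them at 2 places, whose leftmost bases as printed lie 66 and 47 bases before the start. The copy at 66 is on the strand of the gene and that at 47 on the opposite strand, so that the copies face each other. *Ptgr1*, from the other targets of Nrf2, had them too, with a log2 change of -0.17 that is 0.15 relative to its chromosome. *Trib3* and *Ddit3*, at least 3-fold lower in *PID*+ cells like *Slc7a11*, *Chac1* and *Atf3*, have a promoter in the table and no match. The windows of *Slc7a11* and of the matches in the ATF4 list are shown, a choice made with their values known. They lie at chr3:50443623-50443709 for *Slc7a11* (minus strand), chr2:119351019-119351086 for *Chac1* (plus) and chr1:191183406-191183473 for *Atf3* (minus), with the letters of either strand in capitals.
Slc7a11: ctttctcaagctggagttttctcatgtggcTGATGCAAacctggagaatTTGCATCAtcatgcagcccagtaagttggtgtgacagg
Chac1: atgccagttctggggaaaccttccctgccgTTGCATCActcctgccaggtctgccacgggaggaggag
Atf3: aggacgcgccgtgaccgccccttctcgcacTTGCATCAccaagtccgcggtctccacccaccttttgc

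The labelled tissue was checked on marker genes. Of 11 epithelial markers, 9 had a mean FPKM of at least 5 and all 9 were higher in *PID*+ cells, 7 of them also with equal *Gapdh* (not *Krt19* and *Cldn3*). All 11 summed to 9781 FPKM in *PID*+ against 5354 in *PID*- cells, with *Krt19* the most abundant by the mean of the conditions and *Krt18* in *PID*+ cells. The intestinal markers *Vil1* (0.175 and 0.0614) and *Cdx2* (0.542 and 8.04) were near 0 in *PID*+ cells, and *Vil1* in *PID*- cells as well. *Cdx2* thus went against the 9 markers above that level, with a log2 change of -2.55. Of 9 fibroblast markers, 2 (*Col1a1*, the most abundant by the mean of the conditions, and *Col1a2*) had a mean FPKM of at least 5, and both were lower in *PID*+ cells, as *Slc7a11* and most of the ATF4 list were. The 9 had a sum of 3.08 FPKM in *PID*+ against 34.2 in *PID*- cells, with *Lum* listed at 0 in both and *Dcn* and *Thy1* at 0 in *PID*+ cells. *Pdgfra* (0.188 and 0.243) and *Fap* (0.0736 and 0.0918) were near 0 in both conditions. What part the fibroblast markers have in the lower *Slc7a11* or ATF4 list was not tested. The 5 endothelial markers summed to 3.77 and 1.12, led by *Kdr*, the 8 leukocyte markers to 22.0 and 17.2, nearly all of it *Cd68*, with *Cd3e* at 0, and the 6 mast cell markers to 0.637 and 0.567, led by *Kit*, with *Cpa3*, *Fcer1a*, *Ms4a2* and *Tpsb2* at 0 in both conditions. *Cd68*, lower in *PID*+ cells with equal *Gapdh*, was the only 1 of these to average at least 5 FPKM.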

How the data were processed

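Total RNA was selected for poly(A), made into libraries with a kit that does not mark strand, and sequenced. The authors removed adapters with CutAdapt, aligned reads to GRCm38.p3 with TopHat and Bowtie2 on coding gene models, pooled each condition's 3 sets, and deposited CuffDiff's FPKM (compatible hits normalization) with its confidence bounds. Whether counting used strand is not given in the sources used here. Following the labels, treated rows are *PID*+ and untreated rows *PID*-. Of 21966 genes, 7 had a status other than OK and were left out, and 21734 matched a symbol. The deposited standard deviation was not used.

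Log2 changes used a pseudocount of 1 FPKM, which understates changes of low genes, and all genes means those with a mean FPKM of at least 5. The members and lists were chosen with earlier results of these data known. Named were all 10 genes, *Gapdh*, *Actb*, and from each of the 8 lists of related genes every gene with a log2 change of at least 1 in size and at least 5 FPKM in a condition (at most 5), otherwise the 2 most abundant; genes named to spell out a count, or said to be so, were chosen after their values were seen. Gene positions are those of Gencode M21 on GRCm38. The value of a fragment came from 3339 genes with 1 transcript, as FPKM times length less 190 bases, the best of 31 offsets; 98.1% of 540 low values in *PID*+ and 97.3% of 525 in *PID*- cells lay within 0.1 of a whole number. The FPKM of a fragment in *PID*+ cells was 1.38 times that in *PID*- cells, and depth itself is unknown. Alternatives were a pseudocount of 0.1, equal total, upper quartile or *Gapdh* FPKM, chromosome medians subtracted, no filter, intervals apart, and looser motif letters. The code was tested on simulated data. Calculations and plots used matplotlib 3.10.9, scipy 1.17.1, pandas 2.3.3, numpy 2.4.6 and Python 3.11.15.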

Additional observations from a re-analysis of the deposited data

How the results depend on the processing

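With 1 pooled value per condition, no replicate could be left out. No paired analysis was possible because the conditions share no replicate numbers and the values are pooled. None of the 10 genes past 1.5-fold changed direction under the alternatives, and *Slc7a11* was at least 3-fold lower under each scaling and pseudocount. With equal *Gapdh* the median of the 10 genes was -0.57, with 0 genes at least 1.5-fold higher (3.60% of all genes) and 5 lower (49.9% of all genes). With equal total FPKM 3 of the 10 genes were at least 1.5-fold lower (17.2% of all genes), and with chromosome medians subtracted 1 (11.5% of all genes). By intervals apart, 0 of the 10 genes were lower (0.974% of all genes).

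With equal *Gapdh* the list medians were -0.84 (Nrf2 partners), -0.80 (glutathione), -0.96 (thioredoxins), -0.92 (NADPH), -1.07 (haem and iron), -0.95 (superoxide and peroxide), -0.46 (other Nrf2 targets) and -1.60 (ATF4), since this scaling lowers every gene. With equal total FPKM they were -0.32 (Nrf2 partners), -0.29 (glutathione), -0.45 (thioredoxins), -0.41 (NADPH) and 0.0549 (other Nrf2 targets). With chromosome medians subtracted they were -0.0908 (thioredoxins), -0.20 (NADPH), -0.28 (haem and iron), -0.28 (superoxide and peroxide) and -1.25 (ATF4). Without the filter they were -0.20 (superoxide and peroxide) and 0.0406 (other Nrf2 targets). The other list medians moved by less than 0.1.

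Without the filter, 1797 genes were at least 1.5-fold higher, 1942 at least 1.5-fold lower, 229 at least 3-fold higher and 377 at least 3-fold lower, since more genes enter. Over the 10 genes, the bounds lay a median of 72.4% from the FPKM in *PID*+ and 74.1% in *PID*- cells, which limits what these values can show.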
